A study of Mus musculus with 7 samples.

Results

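The step from the growing to the adult alveolus was followed in lung epithelial cells of C57BL/6 mice taken at postnatal day 14 (P14) and at postnatal day 56 (P56). The comparison used 3 of the 7 libraries of the series, the single P14 library and both P56 libraries, chosen by their stage labels. The labels name no allele, drug or other treatment in any group, so age was the only labelled difference between the stages. The cells had been released from minced lung with enzymes and freed of labelled blood and vessel cells on magnetic beads. Living cells were then sorted that carried Epcam, an adhesion protein of epithelial cells, and lacked CD31, CD45, CD146 and Ter119, proteins of vessel and blood cells. The labels do not give the sex or the number of mice behind a library, nor whether the P56 libraries came from different animals. The p-values therefore measure only the spread between these samples, which may be technical. Polyadenylated RNA was amplified and read by 3' SAGE sequencing, which counts short tags from the 3' ends of transcripts. Each deposited value is a tag count multiplied by 1 factor per library. Values of different genes are not per transcript length, and their order is not a result.

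Much of the gas exchange surface of the mouse lung is built after birth, when ridges called septa grow into the air sacs and divide them. P14 lies in this phase of growth and P56 in adult life. A septum holds elastic fibres, collagen and capillaries and is covered by a pair of epithelial cell types. Type 2 cells are cuboidal, secrete surfactant, the film that keeps air spaces open, and can give rise to type 1 cells. Type 1 cells are broad and very thin, carry gas exchange, share a basement membrane with the capillaries and send signals such as VEGF-A to them.

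The P14 library held 3818722 reads and the P56 libraries 3587970 and 3227687. Among 6612 genes whose mean value reached 10, the median absolute log2 difference was 0.26 between the P56 libraries and 0.34 and 0.33 between P14 and each of them. Epcam stood at 57.5 at P14 and at 109 and 60.9 at P56, and the P14 library lay below both. Cdh1, which encodes E-cadherin, stood at 190.1, 206 and 228 in the same order, and Nkx2-1, a transcription factor of lung epithelium, at 1406, 1110.4 and 980.1. None of these genes passed the test. Of the proteins the sort selects against, Ptprc (CD45) had 4 reads at P14 against 0 and 1 at P56, and Pecam1 (CD31) had no read in the 3 libraries. Mcam (CD146) had 3 reads at P14 and 1 and 0 at P56. Immune cell markers without Lyz2, which type 2 cells also make, took 137 reads at P14 and 74 and 76 at P56. Among them Csf1r, a receptor of macrophages, had 81 reads against 0 and 7. Cd14, another marker of this list, lay the other way with 14 reads at P14 and 56 and 55 at P56. Hba-a1, a haemoglobin gene of red cells, had 27 reads against 15 and 18. Csf1r, Cd14 and Hba-a1 were chosen after their values were seen.

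The libraries also differed in sex-linked and stress genes, and these differences cannot be told apart from age. The Y-linked genes Kdm5d, Ddx3y, Uty and Eif2s3y took 129 reads together at P14 and 1 read in each P56 library. Xist, the RNA of the inactive X chromosome, had 1141 reads at P14 and 2289 and 1751 at P56. The P14 library thus held RNA of male cells as well as Xist, whereas Y-linked RNA was near 0 in the P56 libraries. Heat shock genes took 1.21% of the reads at P14 and 2.31% and 2.38% at P56, and immediate early genes, which respond within minutes to a stimulus such as cell isolation, took 1.32% against 2.07% and 2.05%. In the E18.5 libraries, from late fetal lung, the shares were 2.43% and 2.76% for heat shock genes and 1.99% and 2.14% for immediate early genes. The P14 library was the low one among these 5 for both lists, but not in the whole series. In the single E13.5 and E15.5 libraries heat shock genes took 0.538% and 1.89%, and immediate early genes 0.367% and 1.01%.

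**Figure D1:**
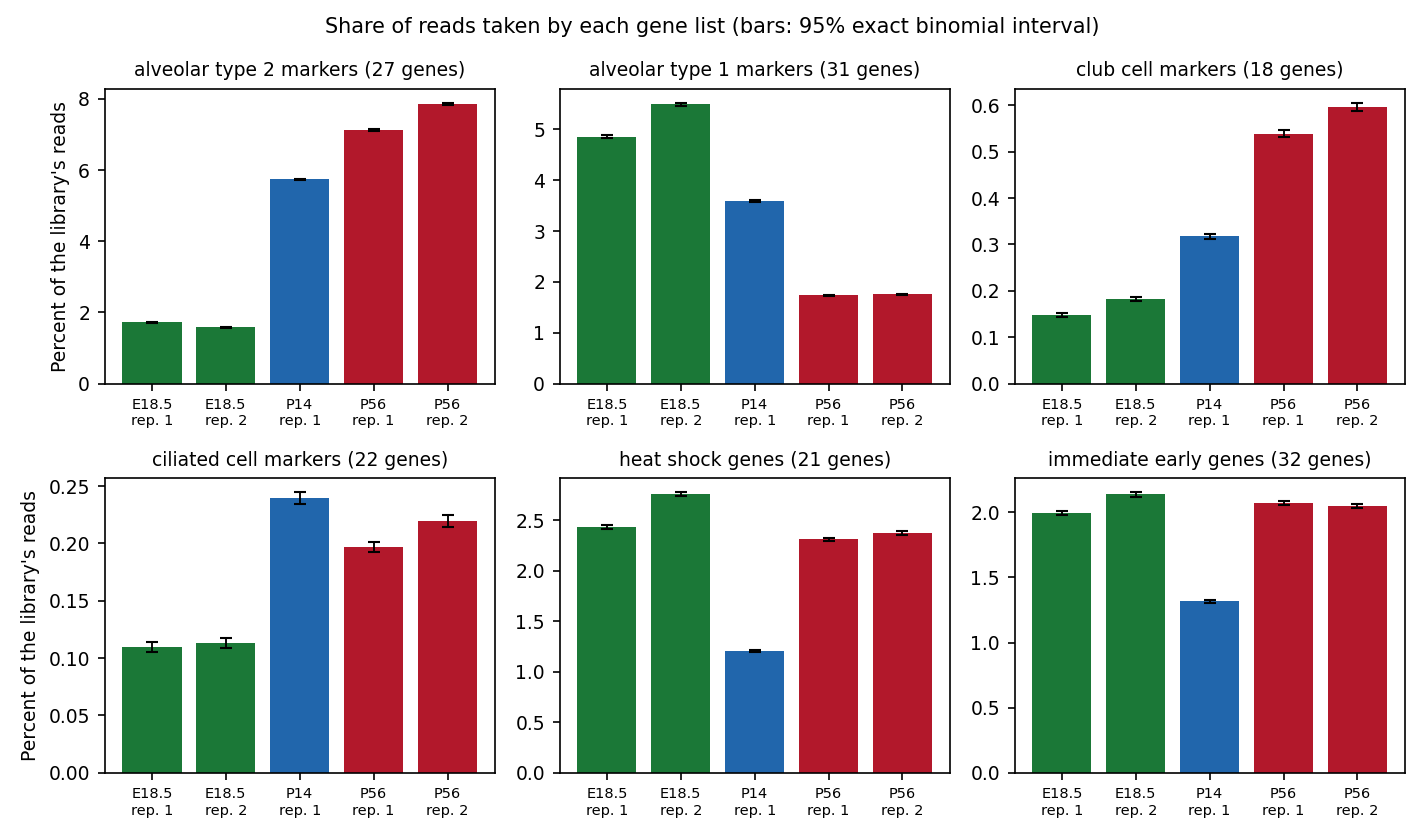
Percent of each library's reads (vertical axes, each from 0) taken by the genes of 6 lists in the E18.5 libraries (green), the P14 library (blue) and the P56 libraries (red), with 95% exact binomial intervals that cover counting error only. The type 1 share stood at 3.58% at P14 and at 1.73% and 1.75% at P56, and the type 2 share at 5.73% and at 7.13% and 7.85%.

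Of 21121 genes listed, 12964 had enough reads to be tested. The test was limma-trend on log2(value + 1), fitted to all 7 libraries with a coefficient per stage. A call required an adjusted p (Benjamini-Hochberg) under 0.05, and a negative log2 change means lower at P56. More genes were called lower than higher at P56. There were 90 lower genes (0.694% of those tested) and 16 higher genes (0.123%), and 71 of the lower and 13 of the higher changed at least 4-fold on the log2 scale. By edgeR's quasi-likelihood test on the recovered reads 193 genes were lower (1.49%) and 74 higher (0.571%), and these included all 106 genes called by limma. DESeq2 gave 135 lower (1.60%) and 61 higher (0.723%) among 8440 genes with an adjusted p. At an unadjusted limma p under 0.05 there were 693 lower genes (5.35%) and 647 higher ones (4.99%). The P14 library lay above both P56 libraries for 36.0% of all genes tested and below both for 35.1%, and it lay outside them for each of the 106 called genes. The median log2 change over all genes tested was 0. Without the Y-linked gene Kdm5d, 89 lower genes remained.

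The P14 stage has 1 library, so the spread came from the P56 and E18.5 pairs, with 2 residual degrees of freedom. No gene was called by limma without its robust variance estimate, from the 3 libraries alone, or without any of the 4 P56 and E18.5 libraries, while edgeR called 24 to 326 higher and 104 to 422 lower genes without each of these 4 in turn. An exact permutation test of 2 libraries against 1 cannot give a p below 0.333.

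**Figure D2:**
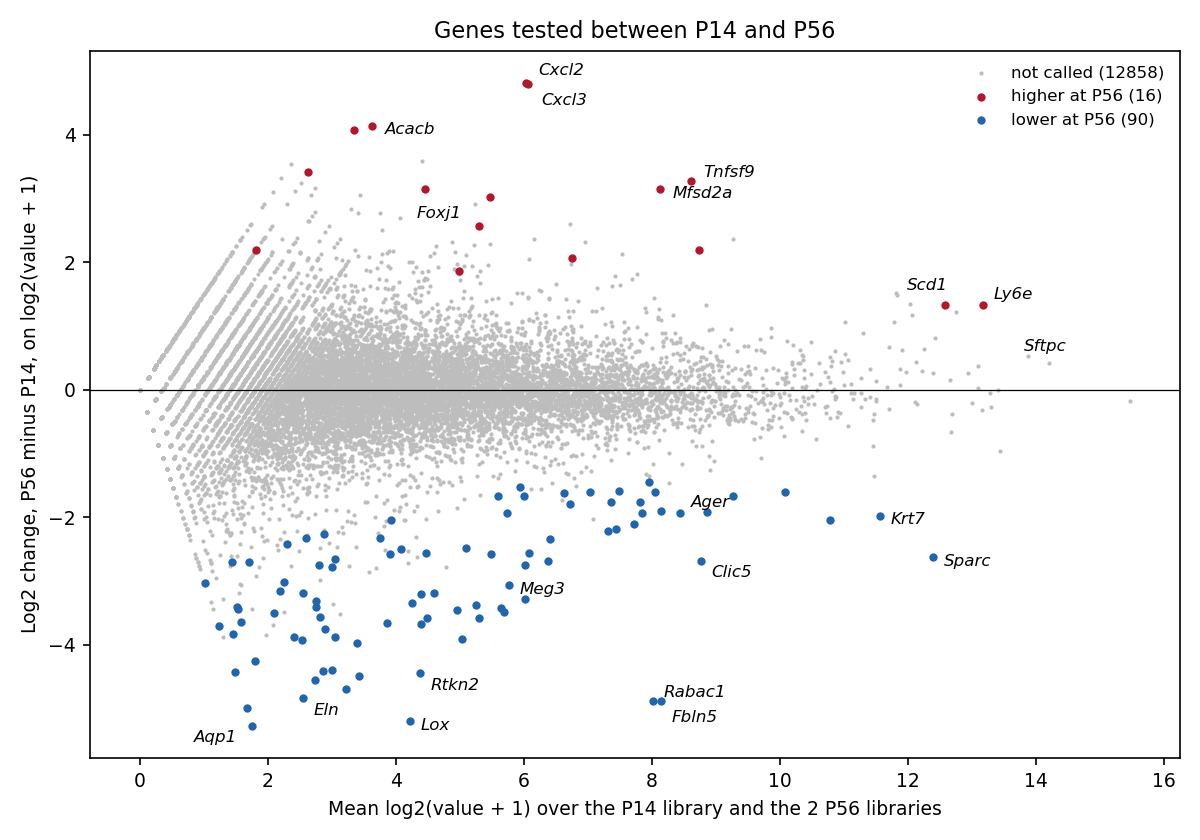
Log2 change from P14 to P56 (vertical axis) against the mean log2(value + 1) over the P14 library and the 2 P56 libraries (horizontal axis) for the 12964 genes tested, with the 16 genes called higher at P56 in red, the 90 called lower in blue and the rest in grey. Lower genes range from scarce ones such as Aqp1, at -5.27, to abundant ones such as Sparc and Krt7, and Cxcl2 and Cxcl3 stand highest at 4.81 and 4.79.

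Type 1 cell transcripts were lower in the adult. Of 31 type 1 markers tested, 16 fell and none rose. Their median log2 change was -1.79, against 0 over all genes tested. In edgeR 20 fell and in DESeq2 21. The P14 library lay above both P56 libraries for 29 of the 31, against 36.0% of all genes tested. Of the 16, 10 also stand in other lists used here, 3 of them in the matrix list, so the counts of these lists are not separate results. In bulk libraries such as these, fewer cells of a type and less RNA per cell cannot be told apart.

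Rtkn2, Scnn1g and Pdpn were nearly gone at P56. Rtkn2, a marker gene of type 1 cells (chromosome 10, 67979570 to 68059740), stood at 161 at P14 and at 7.11 and 5.83 at P56. Scnn1g, the gamma subunit of the epithelial sodium channel that clears fluid from the air space (chromosome 7, 121734479 to 121768475), stood at 85.0 and at 3.41 and 2.27. Pdpn, the membrane glycoprotein podoplanin (chromosome 4, 143267431 to 143299564), stood at 55.0 and at 1.99 and 1.30. In all 3 genes the P14 value was far above both adult values and like those of the E18.5 libraries, which were 131 and 165 for Rtkn2, 87.4 and 101 for Scnn1g and 57.4 and 44.8 for Pdpn. Rtkn2 fell 25.0-fold (log2 change -4.45, SE 0.327, limma adjusted p = 0.00363), Scnn1g 29.9-fold (adjusted p = 0.00363) and Pdpn 33.5-fold (adjusted p = 0.00438). All gene positions come from GENCODE vM21 (GRCm38/mm10), and the genes are protein-coding unless called non-coding.

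Ager, Clic5, Krt7 and Akap5 fell as well. Ager, the receptor for advanced glycation end products and a defining type 1 marker (chromosome 17, 34597862 to 34600936), stood at 851 at P14 and at 230.5 and 212 at P56. Clic5, a chloride channel family member (chromosome 17, 44188584 to 44280172), stood at 1498 and at 227 and 238. For both, the adult libraries lay close together and well below P14. Ager fell 3.84-fold (log2 change -1.94, SE 0.243, adjusted p = 0.0172) and Clic5 6.46-fold (log2 change -2.69, SE 0.217, adjusted p = 0.00363). Krt7, a keratin of simple epithelia, went from 7596 to 2129 and 1728, a 3.94-fold fall (adjusted p = 0.0204). Akap5, an anchoring protein for protein kinase A (chromosome 12, 76324891 to 76334153), went from 114 to 10.2 and 6.15, a 13.9-fold fall (adjusted p = 0.00829).

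Other type 1 markers did not pass the test. Hopx, a homeodomain protein of type 1 cells, stood at 66.6 at P14 and at 6.83 and 14.3 at P56 (log2 change -2.63, adjusted p = 0.116, and 0.0181 with edgeR). Aqp5, the water channel of type 1 cells, stood at 3139.5 and at 2545 and 3000.1 (log2 change -0.18, SE 0.224, adjusted p = 0.879). Hopx thus lay well below its P14 value in both adult libraries, whereas the Aqp5 values were close to each other at both stages. Chosen after their values were seen, the tight junction gene Cldn18 stood at 17335 and at 8555 and 9230.5 (adjusted p = 0.0926), the keratin gene Krt19 at 1087 and at 937 and 841 (adjusted p = 0.726), and Ahnak, a large scaffold protein gene, at 103 and at 102 and 86.8 (adjusted p = 0.939).

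Some genes of caveolae, the flask-shaped pits of the thin type 1 membrane, fell and Cav2 was not called, with no list of caveola genes tested. Cav1, the main coat protein of caveolae, stood at 77.9 at P14 and at 5.98 and 4.53 at P56, a 14.8-fold fall (log2 change -3.67, SE 0.347, adjusted p = 0.00582). Sdpr, a cavin that shapes the coat, stood at 242 and at 19.1 and 24.6, an 11.1-fold fall (adjusted p = 0.00363). Neither gene's adult libraries came near the P14 value. Sdpr was named by the size of its change, and Cav1 and the following genes were chosen after their values were seen. The other cavin genes Ptrf and Prkcdbp fell 3.07-fold and 5.13-fold, and Ehd2, an ATPase at the caveolar neck, 3.44-fold. Cav2, the partner of Cav1 in the coat, stood at 28.3 at P14 and at 24.8 and 18.8 at P56 and did not pass the test (adjusted p = 0.818).

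**Figure D3:**
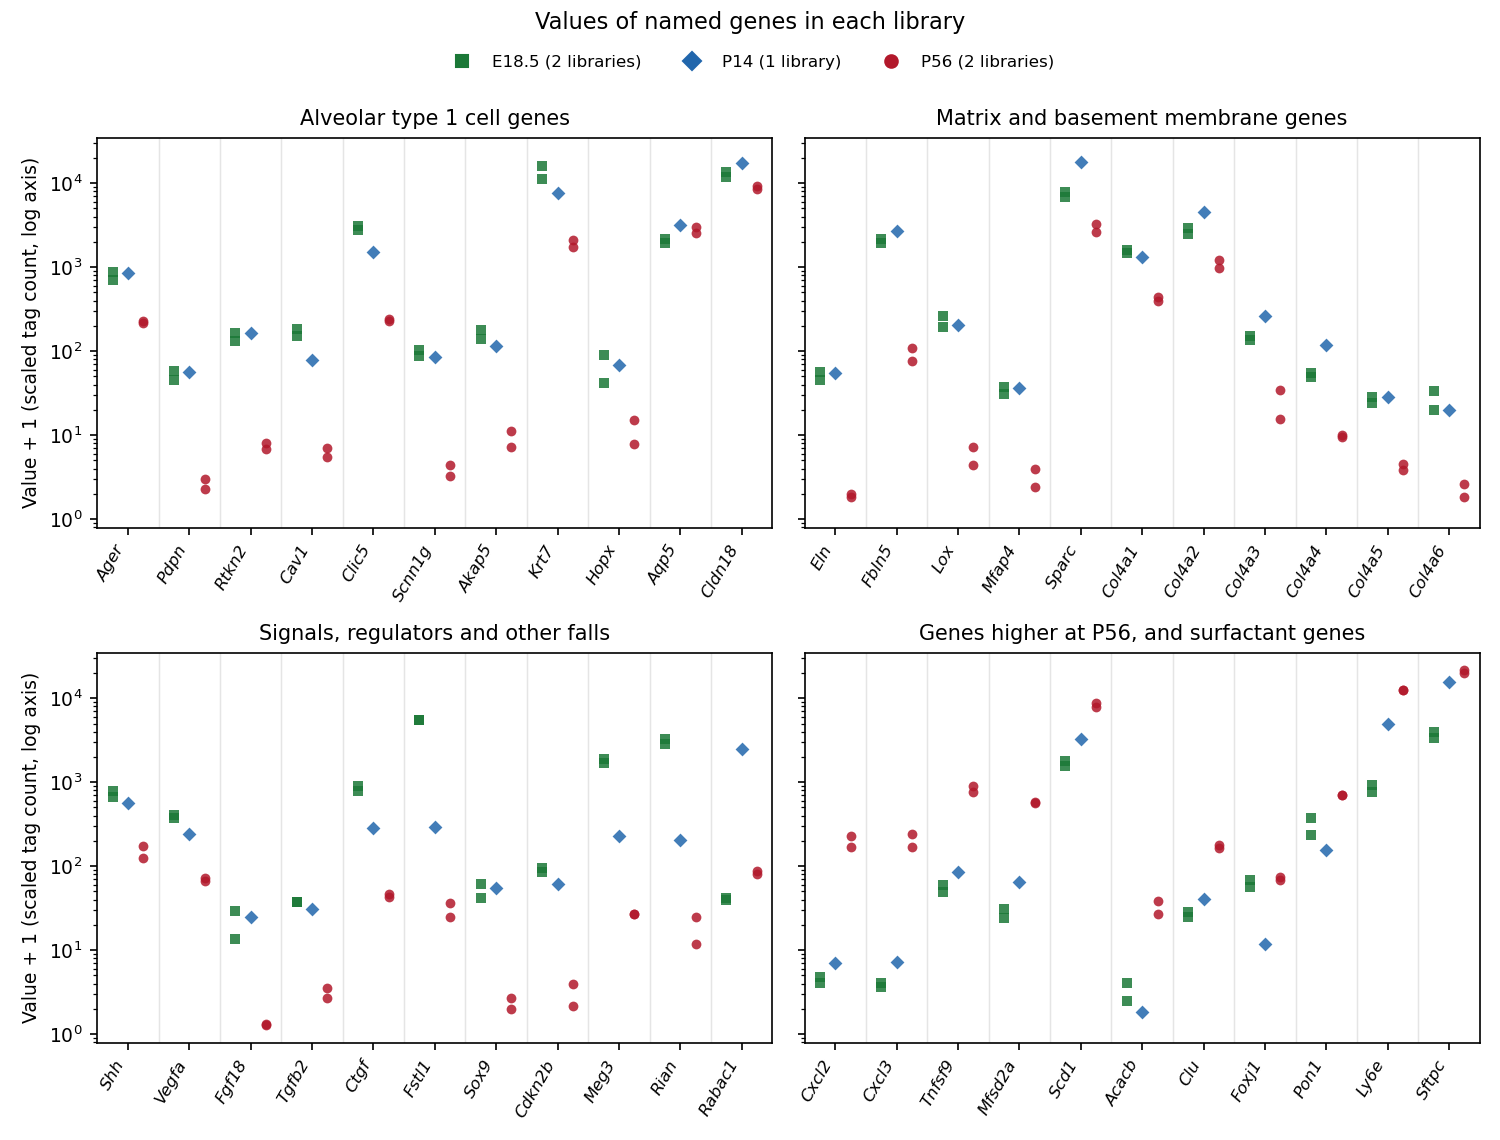
Value + 1 on a log axis for 44 genes in the E18.5 libraries (green squares), the P14 library (blue diamonds) and the P56 libraries (red circles), in 4 panels. Most type 1 and matrix genes shown had P14 values near those of E18.5 and lower P56 values, whereas Meg3, Rian and Fstl1 were already lower at P14 than at E18.5, and Rabac1 was high at P14 alone among these 5 libraries.

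Type 2 cell transcripts did not pass the test. Of 27 type 2 markers tested none was called by limma or edgeR, 6 had an unadjusted limma p under 0.05, all higher, and DESeq2 called 2 higher. The median log2 change was 0.33. The P14 library lay below both P56 libraries for 18 of the 27, against 35.1% of all genes tested. Sftpc, the surfactant protein that only type 2 cells make in quantity, stood at 15516 at P14 and at 19987 and 21448 at P56 (log2 change 0.42, SE 0.203, adjusted p = 0.553). Sftpb stood at 11751 and at 16118 and 17867 (adjusted p = 0.390), and the collectins of surfactant, Sftpa1 and Sftpd, had log2 changes of 0.64 and 0.45 (adjusted p = 0.433 and 0.560). All 4 surfactant genes were higher in both adult libraries than at P14, by 1.34-fold to 1.57-fold in the mean. MHC class II genes, which type 2 cells of the adult mouse express, also showed no call by limma, edgeR or DESeq2 among 10 tested, with 1 lower at an unadjusted limma p under 0.05. H2-Eb1 stood at 3544 and at 3773 and 4857, and Cd74 at 535 and at 705 and 646.

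Genes that build elastic fibres and basement membrane formed a further group of falls. Of 44 matrix genes tested, 15 fell and none rose. Their median log2 change was -1.53, against 0 over all genes tested. By edgeR 19 fell and by DESeq2 17. The P14 library lay above both P56 libraries for 36 of the 44, against 36.0% of all genes tested. In the same libraries mesenchymal markers, which include several of these genes, took 1.88% of the reads at P14 and 0.368% and 0.419% at P56. Without Sparc, Macf1, Limch1 and Plin2, which epithelium also makes, they took 0.0354% and then 0.0169% and 0.0139%, with 16 of 22 markers read at P14 and 15 and 16 at P56. Col1a1, the defining collagen of fibroblasts, had 24 reads at P14 and 4 and 2 at P56, Pdgfra had 1 read at P14 and 0 and 1 at P56, and Pdgfrb had none. Dcn, another mesenchymal marker, lay the other way with 50 reads at P14 and 249 and 136 at P56 (limma adjusted p = 0.506). It was chosen after its values were seen. The part of fibroblast RNA in the falls of matrix genes was not tested.

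Some genes of the elastic fibre were among the deepest falls. Lox, the enzyme that cross-links elastin and collagen, stood at 207 at P14 and at 3.41 and 6.15 at P56. Fbln5, a fibulin that guides elastin onto microfibrils (chromosome 12, 101746565 to 101819055), stood at 2695 and at 108 and 75.8. Eln, elastin itself (chromosome 5, 134702593 to 134747323), stood at 53.9 and at 0.854 and 0.972, the last being 3 reads in each adult library. The adult values of all 3 genes were a small fraction of the P14 value, and the E18.5 values (194 and 261, 1949 and 2173, and 43.9 and 55.8) were much like those of P14. Lox fell 43.2-fold (log2 change -5.21, SE 0.378, adjusted p = 0.00363), Fbln5 29.4-fold (log2 change -4.88, SE 0.263, adjusted p = 0.00132) and Eln 59.1-fold (log2 change -4.84, SE 0.414, adjusted p = 0.00363). The microfibril gene Mfap4 fell 16.4-fold from 35.5 (adjusted p = 0.0202). Fibrillin genes were low at both stages, Fbn1 with 10 reads at P14 and none at P56, and Fbn2 with 29 reads and then 4 and 1, and neither passed the test (adjusted p = 0.416 and 0.0531, both chosen after their values were seen). Loxl2, a relative of Lox, stood at 19.5 at P14 and at 21.3 and 13.6 at P56 (adjusted p = 0.958). The fibulin gene Fbln1 had 4 reads at P14 and 13 and 8 at P56 (adjusted p = 0.731). Loxl2 and Fbln1 were also chosen after their values were seen.

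All 6 collagen IV genes, whose chains form the sheet of the basement membrane, were among the falls. They lie in pairs that start head to head. Col4a4 and Col4a3 share chromosome 1 (82448423 to 82586849 and 82586921 to 82722059) with starts 72 bases apart, Col4a1 and Col4a2 share chromosome 8 with 5' starts that lie 21 bases apart and overlap, and Col4a6 and Col4a5 share the X chromosome with starts 1309 bases apart. Because both members of a pair fell, the 71 bases between the starts of Col4a4 and Col4a3 (chr1:82586850-82586920, GRCm38.p6 from RefSeq) are shown, read 5' to 3' on the minus strand towards Col4a4. No GC box (GGGCGG, searched on both strands) is among these letters. No letter is in capitals because no match was found. The label only names the pair, and the letters run from beside the Col4a3 start to beside the Col4a4 start.
Col4a4 to Col4a3: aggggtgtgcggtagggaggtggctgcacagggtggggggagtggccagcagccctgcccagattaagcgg

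Within each pair both genes fell. Col4a3 and Col4a4, chains of more specialised basement membranes such as that of the alveolus, went from 258 to 33.0 and 14.6 and from 116 to 9.11 and 8.42. Col4a1 and Col4a2, the chains found in nearly all basement membranes, went from 1338 to 399 and 439 and from 4501 to 966 and 1228. Col4a5 and Col4a6 went from 27.8 to 2.85 and 3.56 and from 18.7 to 0.854 and 1.62. No adult library reached the P14 value of any of the 6. The fold was smaller for the common pair, Col4a1 3.19-fold (adjusted p = 0.0172) and Col4a2 4.10-fold (adjusted p = 0.0133), while Col4a3, Col4a4, Col4a5 and Col4a6 fell 10.8-fold, 13.2-fold, 8.67-fold and 15.1-fold (adjusted p from 0.00582 to 0.0308). Col4a3 and Col4a4 were named by the size of their change and the other 4 were chosen after their values were seen.

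Other makers and partners of the basement membrane moved the same way. Sparc, a collagen-binding glycoprotein (chromosome 11, 55394500 to 55423183), stood at 18109 at P14 and at 2593 and 3289 at P56, a 6.16-fold fall (log2 change -2.63, SE 0.221, adjusted p = 0.00363). Its adult values lay below those of E18.5 too, which were 6842 and 7811. The list also held falls of Npnt (nephronectin, an integrin ligand, 4.35-fold), Hspg2 (perlecan, 13.6-fold), Spock2 (a proteoglycan of type 1 cells, 32.4-fold) and Lama3 (a laminin chain, 4.47-fold), all chosen after their values were seen. Outside the list, and chosen in the same way, were Agrn (agrin, 5.75-fold), Dag1 (the matrix receptor dystroglycan, 3.04-fold), Lamb1 (a laminin chain, 21.6-fold), Plod2 (a collagen lysyl hydroxylase, 15.1-fold), Mmp14 (a membrane-bound matrix protease, 3.76-fold) and Ndst1 (a heparan sulfate enzyme, 4.60-fold). Pxdn, the peroxidase that cross-links collagen IV, fell from 44 reads to none in both adult libraries, at least 26.6-fold lower (floor of 3 reads over the group). By contrast Lama5, the main epithelial laminin alpha chain, stood at 834 and at 363 and 408 (adjusted p = 0.0850 in limma and 0.0269 in edgeR). Col18a1, another basement membrane collagen gene, stood at 34.4 and at 20.8 and 44.0 (adjusted p = 0.957), with P14 between the adult libraries.

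Signals from the epithelium to mesenchyme and vessels also fell in part. Of 25 such growth factor genes tested, 8 fell, none rose, and the median log2 change was -0.87. By edgeR 10 fell and 2 rose. Shh, the hedgehog ligand of the lung epithelium (chromosome 5, 28456815 to 28467256), stood at 564 at P14 and at 172 and 125 at P56, a 3.80-fold fall (log2 change -1.94, SE 0.262, adjusted p = 0.0228). Vegfa, the vessel growth factor that type 1 cells supply (chromosome 17, 46016993 to 46032369), stood at 241 and at 72.0 and 66.1, a 3.49-fold fall (log2 change -1.79, SE 0.246, adjusted p = 0.0233). For both genes the adult libraries lay close together and far below P14, and the E18.5 values were higher still (672 and 793 for Shh, 408 and 369 for Vegfa).

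Tgfb2, Sema3e, Fstl1 and Fgf18 fell too. Tgfb2, a transforming growth factor, stood at 30.0 at P14 and at 1.71 and 2.59 at P56 (14.0-fold, adjusted p = 0.00928). Sema3e, a guidance cue for vessels, went from 152 to 12.2 and 13.6 (11.8-fold, adjusted p = 0.00363). Fstl1, a secreted follistatin-like glycoprotein, went from 293 to 23.6 and 36.0 (9.84-fold, adjusted p = 0.00363), after 5567 and 5538 at E18.5. In each case both adult libraries were far below P14. Fgf18, a fibroblast growth factor of the growing alveolus, had 87 reads at P14 and 1 in each adult library, a ratio of 79.0 (95% counting interval 21.2 to 663, adjusted p = 0.0308, chosen after its values were seen). Pdgfa, the signal that recruits elastin-making fibroblasts to septa, stood at 61.6 and at 21.3 and 22.995 (log2 change -1.44, adjusted p = 0.108, and 0.0399 with edgeR). Gdnf, a neurotrophic factor, lay the other way at 84.2 and at 236 and 295 (log2 change 1.64, adjusted p = 0.130, and 0.0138 with edgeR). Pdgfa and Gdnf were chosen after their values were seen.

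Pathway genes and transcription factors of growth gave the following calls. Of 33 genes tested in a list of FGF, EGF and WNT pathway genes 3 fell, none rose, and the median log2 change was -0.16. This list also holds the hedgehog ligand Shh, which was counted among the growth factors above. Besides Shh the falls were Wnt3a and Fzd2. Wnt3a, a WNT ligand, stood at 104 at P14 and at 7.68 and 14.3 at P56 (9.51-fold, adjusted p = 0.0314). Fzd2, a WNT receptor, stood at 23.7 and at 3.13 and 2.27 (8.77-fold, adjusted p = 0.0241). Like all called falls, both had a P14 value above both P56 libraries. Fzd2 stood at 25.4 and 33.2 at E18.5. Among 36 lung transcription factor genes Sox9, which marks the growing tips of the fetal lung (chromosome 11, 112782224 to 112787760), was the 1 called by limma, and edgeR called 3 lower. It stood at 53.6 at P14 and at 1.71 and 0.972 at P56, a 40.0-fold fall (log2 change -4.56, SE 0.381, adjusted p = 0.00363), and at 40.8 and 59.9 at E18.5. The median of that list was 0.04, and Cebpa, Etv5 and Gata6, regulators of alveolar cells chosen after their values were seen, had log2 changes of -0.04, 0.33 and -0.15.

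Targets of YAP and TAZ, coactivators that answer stretch and cell contact through TEAD proteins, fell in part. The list tested holds Notch targets too, and its counts were not split by pathway. Of 20 YAP and Notch targets tested 2 fell, none rose, and the median log2 change was -0.39. Over all genes tested 0.694% fell. The P14 library lay above both P56 libraries for 14 of the 20, against 36.0% of all genes tested. Ctgf, a secreted matrix protein and a standard YAP target, stood at 287 at P14 and at 45.5 and 42.1 at P56, a 6.56-fold fall (log2 change -2.69, SE 0.226, adjusted p = 0.00363). Ajuba, a LIM protein of cell junctions (chromosome 14, 54567472 to 54577558), stood at 52.5 and at 9.96 and 7.13, a 6.15-fold fall (adjusted p = 0.0172). The adult libraries of both genes were alike and far below P14. Cyr61 and Amotl2, other standard targets chosen after their values were seen, stood at 252 and at 183 and 205 (adjusted p = 0.656) and at 811 and at 609 and 549 (adjusted p = 0.507). The 250 bases before the start of Ajuba (chr14:54577662-54577911, GRCm38.p6, minus strand, from RefSeq) are shown because they hold the TEAD motif GGAATG, searched on both strands, at 2 places, 186 and 164 bases before the start. RefSeq and GENCODE place gene starts differently here and in the chemokine genes below, and the windows follow RefSeq. The capitals mark the matches, which here read on the other strand. Among all 32851 promoter windows 12.6% hold this motif, so a match is a description and not a site.
Ajuba: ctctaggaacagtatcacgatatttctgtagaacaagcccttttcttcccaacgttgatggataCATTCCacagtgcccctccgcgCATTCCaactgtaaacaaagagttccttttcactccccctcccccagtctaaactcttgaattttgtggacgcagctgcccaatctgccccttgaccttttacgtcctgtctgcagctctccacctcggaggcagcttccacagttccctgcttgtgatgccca

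Imprinted non-coding RNAs of fetal tissues were lower at P56 than at P14. Of 22 imprinted growth genes tested 3 fell, none rose, and the median log2 change was -0.76. Meg3, a non-coding RNA of the Dlk1 domain (chromosome 12, 109541001 to 109571726), stood at 225 at P14 and at 25.9 in each P56 library, after 1704 and 1871 at E18.5. Rian, a non-coding RNA of the same domain (chromosome 12, 109603940 to 109661716), stood at 205 and at 23.6 and 11.01, after 2851 and 3295. From E18.5 onward both RNAs were thus lower at each later stage, with no overlap. At E13.5 and E15.5 Meg3 stood at 265 and 497 and Rian at 698 and 1227. Meg3 fell 8.69-fold between P14 and P56 (log2 change -3.07, SE 0.217, adjusted p = 0.00363) and Rian 11.8-fold (adjusted p = 0.0116). H19, a non-coding RNA of the Igf2 locus (chromosome 7, 142575529 to 142578143), fell from 26 reads at P14 to none in both adult libraries, at least 15.7-fold lower (floor of 3 reads over the group, adjusted p = 0.00363). Dlk1 and Igf2, the protein-coding genes of these loci, had 2 reads each at P14. They had 0 reads and 7 reads over the adult libraries, at a level where no change could be detected.

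Transport, cycle and other single genes fell too. Of 28 ion and water transport genes 4 fell, none rose, and the median log2 change was -0.14. Beside Scnn1g and Clic5 these were Aqp1, a water channel, with 137 reads at P14 and none at P56, at least 82.9-fold lower (floor of 3 reads over the group, adjusted p = 0.00438), and Fxyd3, a regulator of the sodium pump, at 229 and at 37.8 and 29.1 (6.83-fold). Cdkn2b, an inhibitor of the cell cycle kinases CDK4 and CDK6, went from 60.2 to 1.14 and 2.91 (29.7-fold, adjusted p = 0.00829). Igfbp2, an IGF-binding protein, went from 34.7 to 0.854 and 1.94 (24.8-fold, adjusted p = 0.0173), after 3.08 and 2.26 at E18.5 and 31.2 and 22.96 in the single E13.5 and E15.5 libraries. Cdh13, a cadherin anchored by lipid, stood at 88.0 at P14, at 8.82 and 6.80 at P56 and at 6.16 and 3.39 at E18.5 (11.3-fold, adjusted p = 0.0481). Lipa, the acid lipase of lysosomes, fell 18.6-fold from 49.0 (adjusted p = 0.0172), and Cryab, a small heat shock protein, 3.06-fold from 2275 (adjusted p = 0.0172).

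Rabac1 stood apart among the falls. It encodes an acceptor of Rab proteins in membrane traffic (chromosome 7, 24969752 to 24972754) and stood at 2484 at P14, at 79.7 and 86.5 at P56 and at 38.1 and 41.1 at E18.5. The P14 library was therefore higher than each of the other 4 by a wide margin, and the E13.5 library stood between them at 407. It fell 29.9-fold between P14 and P56 (log2 change -4.89, SE 0.242, adjusted p = 0.00131). Akap2, an anchoring protein for protein kinase A, fell 15.9-fold from 200.0, but its gene lies within Pakap, which fell 20.1-fold, and reads of these overlapping genes may be shared. Ptpre, a tyrosine phosphatase, fell 10.8-fold from 181 (adjusted p = 0.0108).

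On the log2(value + 1) scale the neutrophil chemokines Cxcl2 and Cxcl3 had the largest of the 16 rises. In ratios of reads 3 genes with 1 to 3 reads at P14 stood higher, Prmt8 at 46.0 (95% counting interval 12.5 to 383), Slc16a6 at 46.3 (8.08 to 1848) and Acacb at 37.8 (12.8 to 185), with intervals that include the fold of 33.0 for Cxcl2. Prmt8 and Slc16a6 were chosen after their values were seen. Of 15 epithelial chemokine and cytokine genes tested Cxcl2 and Cxcl3 rose and none fell, with a median log2 change of 1.32. The P14 library lay below both P56 libraries for 13 of the 15, against 35.1% of all genes tested. Cxcl2 (chromosome 5, 90903871 to 90905938) stood at 6.05 at P14 and at 169.6 and 229 at P56. Cxcl3 (chromosome 5, 90786103 to 90789600) stood at 6.33 and at 169 and 242. Both were as low at E18.5, between 2.69 and 3.77, so the adult libraries alone were high. Cxcl2 rose 33.0-fold (log2 change 4.81, SE 0.401, adjusted p = 0.00363) and Cxcl3 32.5-fold (log2 change 4.79, SE 0.404, adjusted p = 0.00363). These genes are close copies, and tags could be split between them. Their neighbour Cxcl1, chosen after its values were seen, stood at 3.85 and at 25.9 and 35.3 (log2 change 2.69, adjusted p = 0.0779, and 0.0186 with edgeR).

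The promoters of the 3 chemokine genes are shown because the genes lie together on chromosome 5 and were high in the same libraries, and because each holds the consensus of NF-kB, the factor known for inducing them. The 250 bases before each start are given 5' to 3' on the plus strand (GRCm38.p6, from RefSeq), Cxcl2 at chr5:90903649-90903898, Cxcl3 at chr5:90785851-90786100 and Cxcl1 at chr5:90890995-90891244. Capitals mark 2 overlapping matches to the NF-kB consensus, searched on both strands, which begin 97 and 96 bases before the start in Cxcl2, 73 and 72 in Cxcl3 and 71 and 70 in Cxcl1. The 2 matches of each gene lie within the same 11 bases. A match occurs in 3.9% of all 32851 windows of this length, so it is a description and not a site. The part of NF-kB in these rises was not tested. The Cxcl2 and Cxcl3 windows were identical at 169 of 288 aligned columns (58.7%).
Cxcl2: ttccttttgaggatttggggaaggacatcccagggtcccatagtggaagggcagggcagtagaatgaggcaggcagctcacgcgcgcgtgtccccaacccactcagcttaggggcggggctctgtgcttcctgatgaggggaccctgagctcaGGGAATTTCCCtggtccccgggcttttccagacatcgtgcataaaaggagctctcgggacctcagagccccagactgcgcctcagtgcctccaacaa
Cxcl3: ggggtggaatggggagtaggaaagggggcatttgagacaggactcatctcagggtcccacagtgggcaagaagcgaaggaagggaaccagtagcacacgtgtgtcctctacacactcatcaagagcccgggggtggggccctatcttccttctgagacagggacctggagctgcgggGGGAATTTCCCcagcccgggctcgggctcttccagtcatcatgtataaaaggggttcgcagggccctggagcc
Cxcl1: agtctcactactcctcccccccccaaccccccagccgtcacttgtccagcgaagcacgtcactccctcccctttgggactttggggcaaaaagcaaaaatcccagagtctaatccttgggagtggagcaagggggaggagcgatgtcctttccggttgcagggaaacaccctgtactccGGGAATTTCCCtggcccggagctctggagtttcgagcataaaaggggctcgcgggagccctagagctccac

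Immediate early and heat shock genes were low in the P14 library beside these rises. Of 31 immediate early genes tested none was called by limma, 17 were higher at an unadjusted p under 0.05, edgeR called 1 higher and DESeq2 3, and the median log2 change was 0.70. Fos, a subunit of the AP-1 factor, stood at 2874 at P14 and at 4544 and 4314 at P56 (adjusted p = 0.289). Of 21 heat shock genes none rose by limma and Cryab fell, 12 were higher at an unadjusted p under 0.05, edgeR called 3 higher and DESeq2 4, and the median was 0.88. Hspa1a, the inducible HSP70 gene, stood at 1778 and at 5283 and 4935 (adjusted p = 0.0881), and Hspb1, a small heat shock protein gene, at 3934 and at 8319.8 and 10100.1 (adjusted p = 0.0672). At E18.5 Hspa1a stood at 4580.4 and 7581. Fos, Hspa1a and Hspb1 were chosen after their values were seen, and the part of these responses in the rises was not tested.

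Tnfsf9, Ly6e and Clu rose too. Tnfsf9, the ligand of the T cell receptor 4-1BB (chromosome 17, 57105325 to 57107757), stood at 85.0 at P14 and at 761 and 908 at P56, a 9.82-fold rise (log2 change 3.27, SE 0.257, adjusted p = 0.00363). Ly6e, an interferon-induced surface protein, stood at 4994 and at 12543 and 12452, a 2.50-fold rise (log2 change 1.32, SE 0.210, adjusted p = 0.0437). Clu, the secreted chaperone clusterin, stood at 40.2 and at 165 and 179, a 4.28-fold rise (adjusted p = 0.0172). In all 3 the P14 library was low and the adult libraries were close to each other. Of 26 interferon-stimulated genes tested none was called by limma or DESeq2, at an unadjusted p under 0.05 there were 3 higher and 3 lower, and edgeR called 2 lower.

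A list of fatty acid and phospholipid synthesis genes, which also holds the lipid carrier gene Mfsd2a, supplied 3 of the 16 rises. Of 37 genes of this list tested, 3 rose and none fell, with a median log2 change of 0.37. The P14 library lay below both P56 libraries for 24 of the 37, against 35.1% of all genes tested. Mfsd2a, a carrier that brings lysophosphatidylcholine with docosahexaenoic acid into cells (chromosome 4, 122946850 to 122961188), stood at 64.1 at P14 and at 570.0 and 579.7 at P56. Scd1, the desaturase that makes monounsaturated fatty acids (chromosome 19, 44394455 to 44407879), stood at 3296 and at 7812 and 8761. Both were lower still at E18.5, at 23.1 and 29.8 for Mfsd2a and at 1577 and 1770.4 for Scd1, and high in both adult libraries. Mfsd2a rose 8.97-fold (log2 change 3.14, SE 0.294, adjusted p = 0.00582) and Scd1 2.51-fold (log2 change 1.33, SE 0.210, adjusted p = 0.0437). Acacb, the acetyl-CoA carboxylase of mitochondria, rose from 3 reads to 91 and 115, a ratio of 37.8 (95% counting interval 12.8 to 185, adjusted p = 0.0172).

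Other lipid genes did not pass the test and differed in direction. Fasn, fatty acid synthase, stood at 324 at P14 and at 439 and 593 at P56 (adjusted p = 0.523), and Scd2, the desaturase more abundant before birth, at 4834 and at 4034 and 4457 (adjusted p = 0.843). Of 30 cholesterol genes tested none was called by limma, at an unadjusted p under 0.05 there were 17 higher and 1 lower, edgeR called 1 higher and 1 lower and DESeq2 2 higher, and the median log2 change was 0.72. The P14 library lay below both P56 libraries for 26 of the 30, against 35.1% of all genes tested. Fdps, farnesyl diphosphate synthase, stood at 33.0 and at 87.4 and 98.1 (adjusted p = 0.0804 in limma and 0.0341 in edgeR), and Insig1, a sterol sensor, at 104 and at 206 and 211 (adjusted p = 0.131). The cholesterol transporter gene Abca1 lay the other way, at 36.3 and at 11.4 and 5.51 (adjusted p = 0.151, and 0.0315 with edgeR). These 5 genes were chosen after their values were seen.

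Airway cell genes were mostly higher in the adult, with 1 call in each list. Of 15 ciliated cell markers tested Foxj1 rose, 9 were higher at an unadjusted p under 0.05, edgeR called 3 higher, and the median log2 change was 1.59. Foxj1, the master regulator of motile cilia (chromosome 11, 116330704 to 116335399), stood at 11.004 at P14 and at 66.9 and 73.2 at P56, beside 55.1 and 67.4 at E18.5, a 6.36-fold rise (log2 change 2.56, SE 0.319, adjusted p = 0.0172). The P14 library was thus the low one on both sides. The share of reads taken by all 22 ciliated markers was not low at P14, at 0.240% against 0.197% and 0.219%. Tppp3, an abundant tubulin-binding protein gene of this list chosen after its values were seen, stood at 2314 and at 1595 and 1849. Of 15 club cell markers Pon1 rose, 8 were higher at an unadjusted p under 0.05, edgeR called 3 higher, and the median was 0.66. Pon1, the lactonase paraoxonase, stood at 154 and at 711 and 698, a 4.58-fold rise (adjusted p = 0.0367). Scgb1a1, secretoglobin of club cells, stood at 91.6 and at 344 and 273 (log2 change 1.73, adjusted p = 0.0856, and 0.00828 with edgeR).

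Mitosis and DNA replication genes gave little change. Of 33 mitosis genes tested none was called by limma, edgeR or DESeq2 and 1 was higher at an unadjusted p under 0.05. Mki67, a marker of cycling cells, had 8 reads at P14 and 14 and 7 at P56, and Top2a, a topoisomerase of dividing cells, stood at 4.68 and at 9.96 and 10.7 (adjusted p = 0.300). Both were too scarce for small differences to be detected. Of 29 DNA replication genes Prim1, a primase subunit, rose 3.83-fold, from 12.4 to 47.8 and 47.0 (log2 change 1.85, SE 0.271, adjusted p = 0.0307), and none fell. Among 22 genes of cyclin-dependent kinase inhibitors and D cyclins, limma called Cdkn2b lower and none higher. By edgeR and by DESeq2 3 were lower and none higher. At an unadjusted limma p under 0.05 there were 6 higher and 3 lower, and the median log2 change was -0.09. Housekeeping lists lay near 0. Of 76 cytosolic ribosomal protein genes none was called by limma, edgeR or DESeq2 and 1 was lower at an unadjusted p under 0.05, with a median log2 change of -0.04. Of 70 respiratory chain genes none was called by limma or DESeq2 and edgeR called 1 higher, with 2 higher and 1 lower before adjustment (p under 0.05) and a median of 0.02. In all, 21 of the 46 lists held at least 1 called gene, and 49 of the 106 called genes were in no list.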

How the data were processed

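Each deposited file lists 21121 genes for 1 of the 7 libraries. The deposited values are a signal, tag counts that the authors scaled by 1 factor per library: dividing by that factor gave whole reads within 0.01 for all values, and the recovered reads were used for depths, intervals and count tests. The submitters' processing notes name the mm10 genome, R 3.4.0 and Bowtie2 2.2.5. The counting tool and annotation are not given in the sources used here.

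Genes were kept by edgeR's filterByExpr with stage as the group. The main test was limma-trend (limma 3.58.1) with robust variance on log2(value + 1) in all 7 libraries, with 1 coefficient per stage and 2 residual degrees of freedom, and Benjamini-Hochberg adjustment over all 12964 genes. The quasi-likelihood test of edgeR 4.0.16 and the Wald test of DESeq2 1.42.0 on recovered reads were alternatives, as were other scalings, filters, pseudocounts (0.5 and 5) and sets of libraries. The code was checked on simulated data. R 4.3.3, Python 3.11.15, pandas 2.3.3, scipy 1.17.1 and matplotlib 3.10.9 were used. A fold is the ratio of the mean P56 value to the P14 value for a rise and the inverse ratio for a fall, and log2 changes understate it for low genes. A gene without reads in the adult was given a bound from a floor of 3 reads, and one with 1 to 3 reads in a stage a ratio with a 95% counting interval. Intervals and floors cover counting error only, as the tags carry no molecular identifiers.

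Named genes were up to 14 per direction with the largest called change and a value of at least 100 in the higher stage, leaving out predicted genes, up to 4 called members of each of 46 lists, and fixed checks of the sort, surfactant, type 1, airway, cycle and MHC class II genes. Any other gene was chosen after its values were seen. Lists, members and tests were chosen with earlier results of these data known. GENCODE vM21 gave positions for 101 of the 106 called genes, and RefSeq promoter windows came from GRCm38.p6.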

Additional observations from a re-analysis of the deposited data

How the results depend on the processing

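No called gene changed direction under any setting run, and the median log2 change of all genes stayed between -0.01 and 0.04. The counts did depend on the settings. Against 16 higher and 90 lower genes, edgeR called 74 and 193, DESeq2 61 and 135, limma without a filter on reads 110 and 690, and limma with a mean value of at least 10 called 62 and 131. With the E18.5, P14 and P56 libraries alone limma called 26 and 102. Without the robust variance, or with the P14 and P56 libraries alone, limma called 0 and 0 (670 and 718, and 735 and 640, at an unadjusted p under 0.05). Leaving out 1 library at a time gave 0 to 23 higher and 0 to 97 lower genes. The 0 came without P56 replicate 1 or 2 or E18.5 replicate 1 or 2, where 1 residual degree of freedom remained, and the upper values without the E13.5 or the E15.5 library. The same exclusions with edgeR, chosen after seeing the data, gave 24 to 326 higher and 104 to 422 lower. For changes of at least 4-fold (13 higher and 71 lower) edgeR gave 43 and 128, DESeq2 22 higher, the mean value of at least 10 gave 30 higher, no filter 41 lower, no robust variance or the 3 libraries alone 0 and 0, and leaving out 1 library 0 to 18 and 0 to 75. The 16 lower type 1 markers became 10 without a filter, 0 without the robust variance or with the 3 libraries alone, and 0 to 16 without 1 library. The 15 lower matrix genes became 6, 0, 0 and 0 to 15 in the same order. Of the limma calls, 10 of the 16 higher and 34 of the 90 lower were shared with limma without a filter. When 1 P56 library was left out, the P14 library lay above the remaining one for 6338 or 6415 genes (4662 with both) and below it for 6352 or 6318 (4548 with both). The cause of these shifts was not tested beyond the degrees of freedom named. No paired analysis was possible because P14 and P56 share only the replicate number 1. A single P14 library also means that differences of the mice used, the sort or the library cannot be told apart from age.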

Other observations

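A few genes outside the groups above had values that a reader may want to look at, all chosen after their values were seen. Actc1, the actin of heart muscle, had 113 reads at P14 and none in the P56 or E18.5 libraries, at least 68.4-fold lower at P56 (floor of 3 reads over the group, limma adjusted p = 0.0172), and Myl3, a myosin light chain of heart and slow muscle, stood at 13.8 at P14 and at 0 in the same libraries (adjusted p = 0.0531). The P14 library was thus the only one of these 5 with reads of both muscle genes. Sprr1a, a cornified envelope protein, rose 8.88-fold from 9.90 to 83.9 and 92.0 (adjusted p = 0.00829), and its E18.5 values of 74.3 and 57.6 lay near the adult ones. Fxyd6, a regulator of the sodium pump, rose 10.8-fold, from 4.13 to 44.4 in both adult libraries (adjusted p = 0.0165). Prmt8, an arginine methyltransferase, rose by a ratio of 46.0 in reads (95% counting interval 12.5 to 383), and no E18.5 library held a read of it. E2f7, a repressor of cell cycle genes, rose by a ratio of 17.6 (2.94 to 717), but stood higher at E18.5, at 56.6 and 51.6.

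Glucocorticoid and clock genes moved in both directions without a limma call. Of 29 tested, at an unadjusted p under 0.05 there were 8 higher and 6 lower, and edgeR and DESeq2 each called 3 higher and 2 lower. Nr1d1, a repressor of the clock, stood at 41.8 at P14 and at 181 and 153 at P56 (adjusted p = 0.0827), and the metallothionein gene Mt2 at 8.80 and at 60.6 and 87.8 (adjusted p = 0.0542). Tsc22d3, a glucocorticoid target, lay the other way at 853 and at 341 and 373 (adjusted p = 0.0856). The labels used here give no time of day, so its part in these values was not tested. Of 15 secreted defence genes none was called by limma, and 7 were higher at an unadjusted limma p under 0.05. By edgeR 3 were called higher and by DESeq2 4. The P14 library lay below both P56 libraries for 14 of the 15, against 35.1% of all genes tested. Of 30 xenobiotic metabolism genes none was called by limma, edgeR or DESeq2, with 8 higher at an unadjusted p under 0.05. Ifit3, an interferon-induced gene, stood at 62.7 at P14 and at 10.5 and 7.13 at P56 (adjusted p = 0.127, and 0.010 with edgeR). Cox6a2, the muscle form of a cytochrome oxidase subunit, stood at 206 and at 906 and 1254 (adjusted p = 0.193, and 0.0107 with edgeR), against 8.86 and 2.26 at E18.5.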
